A study of Mus musculus with 2 samples.

Results

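The Psm genes encode the subunits, activators and assembly factors of the proteasome. They were taken as all protein-coding genes of GENCODE M21 (mouse build mm10) whose symbol starts with Psma, Psmb, Psmc, Psmd, Psme, Psmf or Psmg, which gave 50 of 21951 gene records. The symbol rule also brought in Psmc3ip, a meiotic recombination factor that is not part of the proteasome and is counted here only because the rule takes it. Promoter accessibility of these genes was read from DNase-seq peaks, and the immune, thymic and testis isoforms were set beside the constitutive subunits they replace.

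The proteasome degrades proteins that carry ubiquitin chains. Its barrel, the 20S core, is made of alpha rings, which gate the entrance, and beta rings, which hold the catalytic subunits Psmb5, Psmb6 and Psmb7. The 19S cap recognises, unfolds and feeds in the substrate, and other activators can take its place. Interferon makes cells swap the catalytic subunits for Psmb8, Psmb9 and Psmb10, the immunoproteasome, which cuts peptides for display on MHC class I, while Psmb11 serves the thymic cortex and Psma8 the male germ line. Neurons depend on constitutive proteasomes for protein quality control and for remodelling of synapses.

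The tissue was frontal cortex from B6CASTF1/J females, 14 days old, profiled by DNase-seq. The animals are the first-generation cross of C57BL/6J with CAST/EiJ, and no treatment, second genotype or second tissue was labelled. DNase I cuts DNA that is not packed by nucleosomes. Regions of dense cutting are called as peaks, and short protected stretches within them, where a bound protein can shield the DNA, are called footprints. The data were 2 libraries of 1 group, labelled biological replicates 1 and 2. They came from separate biosamples under 1 donor label, so their spread may be partly technical, and the labels do not say if animals were pooled. Reads of both parental strains were placed on the single mm10 reference, so sites that differ in the CAST/EiJ strain may be read less well.

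The longer peak list held 93641 peaks in replicate 1 and 66196 in replicate 2. Each peak carries the authors' own strength, a signal of unstated scale, so total reads are unknown. In each library every strength was an integer number of equal steps (100% within 0.05 steps). The step was 0.0067 for replicate 1 and 0.00858 for replicate 2, a depth ratio of 1.28 if a step is taken as 1 cut. On that reading the strongest promoter peaks of the Psm genes rested on a median of 554 cuts in replicate 1 (248 to 1035) and of 294 in replicate 2 (98 to 784). Intervals below are exact Poisson 95% intervals on those cuts and cover counting error only. The tissue is a mixture of cells, so a lower strength in fewer cells of a type and a lower accessibility per cell cannot be told apart. A promoter peak was called in both libraries for all 6 neuronal marker genes, against 2 of 4 astrocyte, 1 of 5 oligodendrocyte, 0 of 6 microglial, 0 of 4 endothelial, 0 of 6 lymphoid and 0 of 7 testis germ cell markers.

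Promoters of the Psm genes were open almost without exception. A promoter peak is one within 500 bp of any annotated transcription start site (TSS) of the gene, and 47 of the 50 genes had one in replicate 1, in replicate 2 and in both. Among all protein-coding genes 63.7% had one in replicate 1, 59.2% in replicate 2 and 58.8% in both. The 3 genes without one were Psma8, Psmb11 and Psme2b. With the authors' shorter, stricter peak list the same number, 47, kept a peak in both libraries, beside 52.4% of all genes. Restricting the search to starts of protein_coding transcripts again gave 47, beside 57.3%. Restricting it to the 5′ end of the gene record gave 43, beside 53.2%. Psma6, Psmd5, Psmd9 and Psmf1 dropped out there, because their records begin with an upstream transcript that has no peak at its start.

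The strongest promoter peak of a Psm gene had a median strength of 3.58 in replicate 1 and 2.38 in replicate 2 with genes lacking a peak set to 0, against 1.16 and 0.806 over all protein-coding genes. Much of that gap lies in how many genes have a peak at all. Among genes with a promoter peak in both libraries the medians were 3.71 and 2.52 for the 47 Psm genes and 2.94 and 1.88 for the 12910 genes in all. In replicate 1 the middle of the peak lay a median of 26 bp from the nearest TSS, within 100 bp in 42 of 47 genes, and on the upstream side in 33. These distances were not taken over all genes, so they cannot be read as a trait of the Psm genes. The peaks were narrow, with a median width of 220 bp in replicate 1 and 260 bp in replicate 2, beside 240 and 260 bp over all genes with a promoter peak in both libraries. In the ranking by strength, the intervals of adjacent Psm genes were apart in 0 of 46 pairs in replicate 1 and in 2 of 46 in replicate 2. Neighbours in a sorted list are close by construction, so this does not say how well more distant ranks were resolved.

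**Figure D1:**
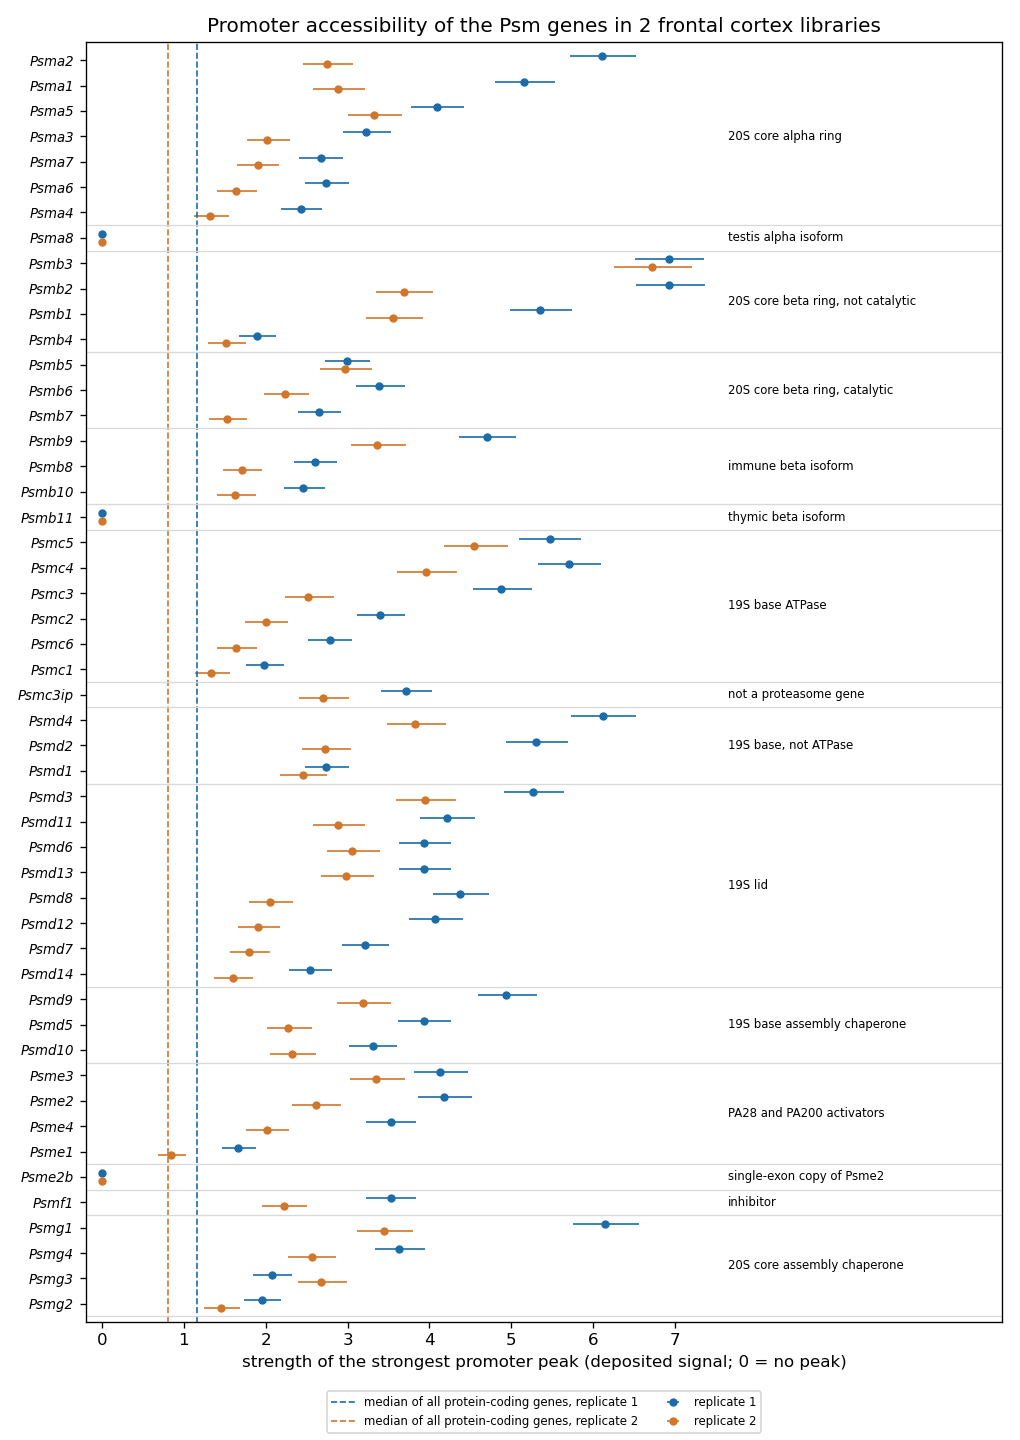
Strength of the strongest promoter peak (x axis, deposited signal, 0 where no peak was called) of each of the 50 Psm genes (y axis, grouped by role) in replicate 1 (blue) and replicate 2 (orange), with exact Poisson 95% intervals on the cuts. Dashed lines mark the medians over all protein-coding genes, 1.16 in replicate 1 and 0.806 in replicate 2, and Psma8, Psmb11 and Psme2b sit at 0 in both libraries.

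Within the 20S core the alpha ring genes Psma1 to Psma7 were all open, from 2.43 (Psma4) to 6.11 (Psma2) in replicate 1 and from 1.32 (Psma4) to 3.32 (Psma5) in replicate 2. The structural beta subunits were spread widely. Psmb3 had the strongest promoter of all 50 genes by mean rank, at 6.93 in replicate 1 and 6.72 in replicate 2, and a further peak whose centre lay 858 bp upstream in replicate 1. Psmb2 followed with 6.93 and 3.69. These genes were open in both libraries, but only Psmb3 was about as strong in replicate 2 as in replicate 1. Psmb4, a beta subunit needed for completing the core, was among the weakest with 1.89 and 1.52. Psmb1 had 2 promoter peaks, and the stronger of them differed between libraries. The peak 1430 bp inside the gene had 5.35 (4.99 to 5.74) in replicate 1 and 3.23 in replicate 2. The peak at its 5′ end, which it shares with Tbp, had 4.89 in replicate 1 and 3.56 (3.23 to 3.92) in replicate 2. Intervals were made only for the stronger peak of each library, so this change of order was not separated from counting error. Psmb1 was the only one of 47 Psm genes whose strongest peaks did not overlap between libraries, which held for 5.73% of the 12910 genes with a promoter peak in both.

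The catalytic subunits and their immune isoforms were compared pair by pair, with no test, since each is 1 gene in 2 libraries. Psmb5, the chymotrypsin-like subunit, had a strength of 2.99 (2.72 to 3.29) in replicate 1 and 2.97 (2.66 to 3.30) in replicate 2. Psmb8, which replaces it, had 2.60 (2.35 to 2.87) and 1.71 (1.48 to 1.96). The intervals were apart in replicate 2, where the immune isoform was weaker beyond counting error. They overlapped in replicate 1, with Psmb8 again the lower. Overlap of separate intervals is no test of a difference, so a difference beyond counting error in replicate 1 was not tested. Psmb6, the caspase-like subunit, had 3.39 (3.10 to 3.70) and 2.24 (1.98 to 2.53). Its immune counterpart Psmb9 had 4.70 (4.36 to 5.06) and 3.36 (3.04 to 3.71), which is 1.39 and 1.5 times as strong. Psmb9 was above Psmb6 beyond counting error in both libraries, but its peak is shared with Tap1, the divergent gene of the peptide transporter, and the signal cannot be divided between them.

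Psmb7, the trypsin-like subunit, had 2.65 (2.39 to 2.92) in replicate 1 and 1.53 (1.31 to 1.77) in replicate 2. Its immune counterpart Psmb10 had 2.46 (2.22 to 2.73) and 1.63 (1.41 to 1.88), and the intervals overlapped in both libraries. That peak of Psmb10, however, lay 1333 bp inside the gene record in replicate 1, at starts of transcripts annotated as non-coding. With only starts of protein_coding transcripts counted, the strongest peak within 500 bp had 0.958 (0.808 to 1.13) and 0.712 (0.567 to 0.883). That was 0.362 and 0.465 times the strength of Psmb7. The centre of this peak lay 523 bp inside the gene record in replicate 1 and 515 bp inside it in replicate 2. Which start was counted therefore set whether Psmb10 stood level with Psmb7 or well under it.

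**Figure D2:**
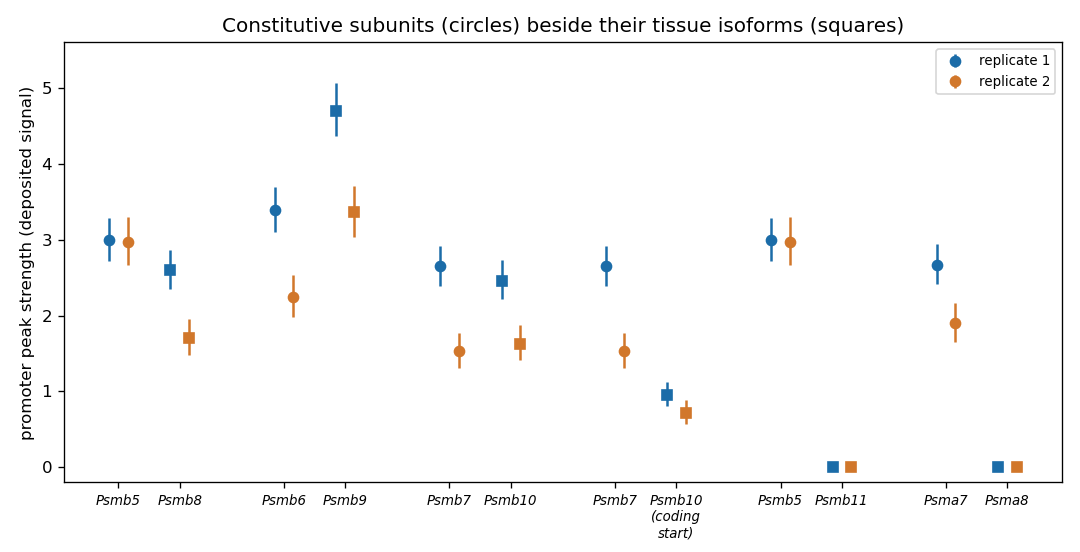
Promoter peak strength (y axis, deposited signal, 0 where no peak was called) of constitutive subunits (circles) and the isoforms that replace them (squares) in replicate 1 (blue) and replicate 2 (orange), with exact Poisson 95% intervals. Psmb9 lies above Psmb6 in both libraries, and Psmb11 and Psma8 are at 0. Psmb10 falls below Psmb7 when only peaks within 500 bp of a coding start are counted.

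The promoter sequences of these genes are shown because the footprints place protected bases in them. Each is read 5′ to 3′ along the gene's strand from GRCm38.p6 (mm10), with capitals for bases inside a footprint of both libraries. Psmb5 (chr14:54617973-54618140, minus strand), Psmb6 (chr11:70525261-70525416, plus strand), Psmb8 (chr17:34197561-34197760, plus strand) and Psmb10 (chr8:105936989-105937260, minus strand) are given as the strongest replicate 1 peak, cut at 50 bases past the nearest TSS. The Psmb10 stretch is its internal peak, within the gene body.
Psmb5: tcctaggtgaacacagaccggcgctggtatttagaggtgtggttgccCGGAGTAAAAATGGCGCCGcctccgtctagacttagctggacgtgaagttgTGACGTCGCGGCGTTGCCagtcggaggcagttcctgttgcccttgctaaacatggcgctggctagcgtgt
Psmb8: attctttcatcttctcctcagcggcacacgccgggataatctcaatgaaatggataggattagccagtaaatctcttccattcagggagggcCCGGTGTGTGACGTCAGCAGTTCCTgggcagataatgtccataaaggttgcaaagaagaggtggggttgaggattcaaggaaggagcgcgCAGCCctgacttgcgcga
Psmb6: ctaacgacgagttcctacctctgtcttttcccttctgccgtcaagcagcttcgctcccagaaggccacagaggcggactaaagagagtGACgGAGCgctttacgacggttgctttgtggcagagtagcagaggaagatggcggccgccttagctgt
Psmb10: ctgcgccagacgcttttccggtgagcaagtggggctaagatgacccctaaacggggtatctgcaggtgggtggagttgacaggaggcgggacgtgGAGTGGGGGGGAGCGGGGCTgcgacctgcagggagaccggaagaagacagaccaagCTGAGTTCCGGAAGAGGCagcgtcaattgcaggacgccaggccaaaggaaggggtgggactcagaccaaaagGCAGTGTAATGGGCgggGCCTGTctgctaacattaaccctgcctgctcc

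In Psmb5 the footprints of both libraries covered 37 of the 168 bases shown, in 2 blocks, of which the second begins with the letters TGACGTCGC just before the TSS. In Psmb8 they covered 30 of 200, mostly 1 block that holds the palindrome TGACGTCA. In Psmb6 they covered only 7 of 156, and in Psmb10 58 of 272. In the Psmb6 stretch a replicate 2 footprint of 8 bases bridged neighbouring replicate 1 footprints, and the other footprints had no partner in the other library. For Psmb7 and Psmb9 the replicate 1 peak was centred inside the gene record, 106 and 313 bp from its 5′ end. For these 2 genes the longest doubly protected stretch of at most 30 bases is shown, at chr2:38643923-38643940, minus strand, and at chr17:34187374-34187401, minus strand. Both stretches hold a GC-rich run.
Psmb7: TCGCTCCGCCCTCGGCCC
Psmb9: CCCTTGCGCGATGATGGGGCGGGGCCTC

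**Figure D3:**
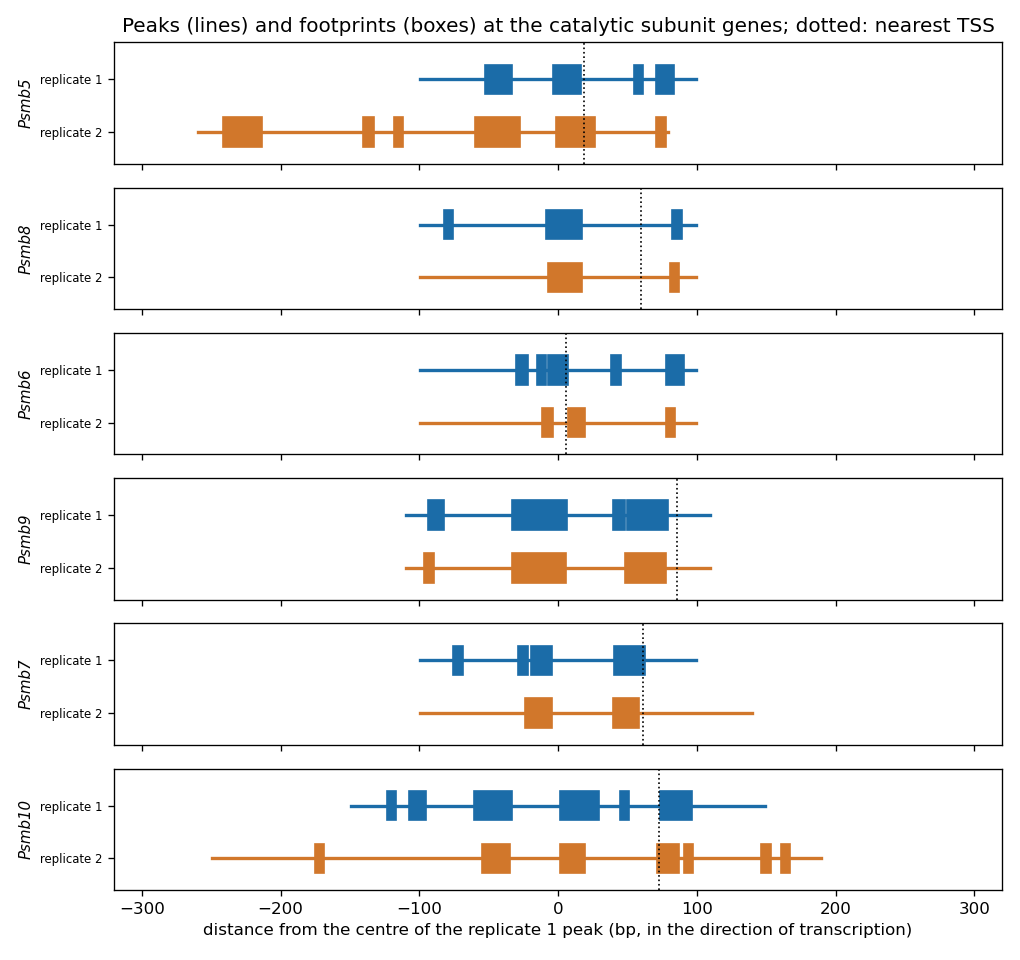
Peaks (lines) and footprints (boxes) at the 3 catalytic subunit genes and their 3 immune isoforms, in replicate 1 (blue, upper) and replicate 2 (orange, lower). The x axis is the distance in bp from the centre of the strongest replicate 1 promoter peak along the direction of transcription, and the dotted line is the nearest TSS. At Psmb8 and Psmb9 the widest boxes fall at the same place in both libraries. At Psmb6 a replicate 2 box near the TSS bridges neighbouring replicate 1 boxes, and others near it have no partner.

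The thymic and testis isoforms had no promoter called open. Psmb11 and Psma8 had no promoter peak, no promoter footprint and no base of their TSS windows below an FDR of 0.05 in the authors' cut rate calls, in either library. Psme2b, a single-exon copy of the activator gene Psme2, was the third such gene. These were 3 of 50 Psm genes, against 34.9% of all protein-coding genes. The constitutive counterpart of Psma8, Psma7, had 2.67 and 1.90, in a promoter shared with Ss18l1. Among the marker genes of the cells where these isoforms act, 0 of 7 testis germ cell genes and 1 of 3 thymic epithelium genes (Aire, at 0.703 and 0.798) had a promoter peak in both libraries. A gene with no peak is listed as closed only at this depth, since no counts are given outside peaks.

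The sequence before Psmb11 shows how poor in CG dinucleotides this promoter is. The 200 bases before its 5′ end (chr14:54621233-54621432, plus strand) hold a single CG, in capitals.
Psmb11: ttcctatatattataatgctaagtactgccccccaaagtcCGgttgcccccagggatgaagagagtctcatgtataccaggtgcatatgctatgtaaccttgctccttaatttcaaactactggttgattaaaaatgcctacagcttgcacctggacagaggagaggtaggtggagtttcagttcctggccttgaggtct

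Over 250 bases before to 50 after the 5′ end, Psmb11 had a ratio of observed to expected CG of 0.0639, the lowest of the 50 Psm genes, whose median was 0.753 beside 0.525 over all protein-coding genes. Psma8 is different: its window had a ratio of 0.764, near the median of the Psm genes, with no peak. Psme2b had 0.325. Psmd9 (0.155), Psma6 (0.185) and Psme1 (0.226) also had low ratios in this window, but it need not hold their open site. Psmd9 and Psma6 had no peak at the 5′ end of the record, and within their strongest replicate 1 peaks the ratios were 0.907 and 0.816. The replicate 1 peak of Psme1 was centred 278 bp inside the gene and had a ratio of 0.558. Within the strongest replicate 1 peaks the median ratio was 0.817 for Psm genes and 0.818 for all genes, and the median GC content was 63.4% and 65%.

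In the 19S cap, the 6 ATPases of the base, which unfold substrates, were all open. Psmc5 had 5.47 in replicate 1 and 4.55 in replicate 2, in a promoter shared with Ftsj3. Psmc4 had 5.71 and 3.96, with no such neighbour. Psmc1 was the weakest ATPase, at 1.98 and 1.33. The other 3 ranged from 2.78 to 4.88 and from 1.64 to 2.52. The intervals of Psmc1 lay apart from those of Psmc4 and Psmc5 in both libraries, while those of Psmc4 (5.33 to 6.10) and Psmc5 (5.10 to 5.85) overlapped in replicate 1.

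Of the other base subunits, Psmd4, a receptor for ubiquitin chains, had 6.12 and 3.83, and the scaffold subunits Psmd1 and Psmd2 had 2.74 and 5.30 in replicate 1 and 2.45 and 2.73 in replicate 2. The 8 lid genes ranged from 2.54 to 5.27 in replicate 1 and from 1.6 to 3.95 in replicate 2. The lowest in both libraries was Psmd14, the enzyme that removes the ubiquitin chain, and the highest was Psmd3. The chaperones that assemble the base, Psmd5, Psmd9 and Psmd10, lay between 3.31 and 4.94 and between 2.27 and 3.19. No group of the cap lacked a promoter peak.

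Among activators, Psme1 and Psme2 form the interferon-inducible PA28 cap, Psme3 forms nuclear PA28-gamma and Psme4 encodes PA200. Psme1 had the weakest promoter of the 47, at 1.66 (1.46 to 1.88) in replicate 1 and 0.841 (0.682 to 1.02) in replicate 2. Psme3 had 4.13 and 3.35, and Psme4 had 3.53 and 2.01. Psme1 was below both beyond counting error, at 0.402 and 0.251 times Psme3 and at 0.470 and 0.418 times Psme4. Its partner Psme2 had 4.18 and 2.61, but that peak lay 518 bp upstream in replicate 1, at the start of Rnf31, and its own 5′ end had 2.99 and 1.56. Psmf1, the proteasome inhibitor, had 3.53 and 2.22.

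The chaperones that assemble the 20S core act in pairs, Psmg1 with Psmg2 and Psmg3 with Psmg4. Psmg1 was among the strongest promoters, at 6.15 and 3.45, and Psmg2 among the weakest, at 1.95 and 1.45, in a promoter shared with Cep76. Partners of 1 complex were therefore far apart. Psmg3 had 2.08 and 2.68 and Psmg4 had 3.63 and 2.56. Psmg3 was the only one of 47 Psm genes with the stronger value in replicate 2, beside 4.45% of the 12910 genes with a promoter peak in both libraries.

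Some Psm promoters were shared with another gene, at a share near that of all genes. For 11 of the 47 genes (23.4%) the strongest replicate 1 peak also lay within 500 bp of a TSS of another protein-coding gene, beside 18% of all genes with a promoter peak in replicate 1. These were Psma2 with Mrpl32, Psma4 with AY074887, Psma7 with Ss18l1, Psmb9 with Tap1, Psmc2 with Dnajc2, Psmc5 with Ftsj3, Psmd10 with Atg4a, Psmd13 with Sirt3, Psme2 with Rnf31, Psmg2 with Cep76 and Psmg3 with Gm26938. Only the pair of Psmb9 and Tap1 joins genes of 1 pathway that is stated here, antigen processing. DNase-seq does not say which gene of such a pair the open site serves.

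Footprints marked the same 47 promoters. A footprint overlapped the TSS windows of 47 of 50 Psm genes in both libraries, beside 56.7% of all genes. The median was 7 per gene in replicate 1 and 6 in replicate 2, equal to the medians of 7 and 6 over all genes with a promoter peak in both libraries. Psmb1 had the most in both libraries, 15 and 13. In replicate 1 it was followed by Psmg4 with 14 and 5, Psme3 with 12 and 6, and Psma7, Psmd3 and Psmd8 with 11 and 7 each. In replicate 2 the next were Psma4 and Psmd11 with 9, and Psmg4 with 5 lay below the median. Inside the strongest promoter peaks of the Psm genes, 63% of 227 replicate 1 footprints overlapped a footprint of replicate 2, and 74.5% of 204 replicate 2 footprints overlapped one of replicate 1. Over all genes those shares were 56% and 69.4%.

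Motifs were searched in the strongest replicate 1 promoter peak on both strands. The core of the antioxidant response element, TGACNNNGC, is bound by Nfe2l1, which drives proteasome genes when proteasomes fail, and by Nfe2l2. It was found in 9 of 47 Psm peaks (19.1%), beside 14.7% of the 13989 protein-coding genes with a replicate 1 promoter peak, the set that motif shares below refer to. In 7 of the 47 (Psma3, Psmb10, Psmb2, Psmb5, Psmb6, Psmd3 and Psmd9) a site overlapped a footprint of both libraries by at least 1 base. That held for 4.46% of all 13989, counted with or without the core. In the strongest replicate 2 peaks the core was in 13 genes, beside 14.8%, and the same 7 genes had one in a footprint of both libraries. In a fixed window, 250 bases before to 50 after the 5′ end of each gene record, it was in 6 of 50 Psm genes (12%), beside 12.5% of all genes. There 3 of the 50 (Psmb2, Psmb5 and Psmb6) had one in footprints of both libraries, beside 2.02% of all genes. The share of Psm genes with the core thus lay above or about level with the background depending on the window.

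The 7 sites are shown with 10 bases on each side, the core in capitals, on the strand that reads TGAC, from GRCm38.p6. Their positions are Psmb5 at chr14:54618024-54618052 (minus strand), Psmd9 at chr5:123228149-123228177 (plus strand), Psmb6 at chr11:70525338-70525366 (plus strand), Psmd3 at chr11:98682589-98682617 (minus strand), Psmb2 at chr4:126677619-126677647 (plus strand), Psmb10 at chr8:105937075-105937103 (plus strand), and Psma3 at chr12:70974723-70974751 (minus strand). The number of the 9 core bases protected in both libraries was 9 in Psmb5 and Psmd9, 7 in Psmb6, 4 in Psmd3, 3 in Psmb2, 2 in Psmb10 and 1 in Psma3, so only Psmb5 and Psmd9 had the whole core covered.
Psmb5: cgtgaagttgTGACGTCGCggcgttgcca
Psmd9: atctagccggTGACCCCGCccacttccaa
Psmb6: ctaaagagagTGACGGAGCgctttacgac
Psmd3: ggccgcacgaTGACCGAGCagctgcaaac
Psmb2: gccgcgccagTGACTGGGCcgtcgcgcgt
Psmb10: gtcctgcaatTGACGCTGCctcttccgga
Psma3: ctcatggtgcTGACCCGGCaggccgcgga

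Psmb5 and Psmb6 carried such a site in footprints of both libraries and their immune counterparts Psmb8 and Psmb9 had no core match in this window. Psmb10 had a match at its internal peak, and Psmb7 had none. The ETS consensus CCGGAAGT, bound by a large family of promoter factors, was in 11 of 47 Psm peaks (23.4%), beside 8.03%, and in 8 of 50 (16%), beside 4.7%, in the fixed window. In the peaks it overlapped footprints of both libraries in 4 of 47 genes, Psma6, Psmc1, Psme3 and Psme4, beside 2.92% of all. The interferon-stimulated element AAANNGAAA was in 6 Psm peaks (12.8%), beside 3.94%. It overlapped footprints of both libraries in 0 of 47 Psm peaks, beside 0.55% of all. The 6 with a match were Psmb3, Psmd11, Psmd4, Psmd7, Psme1 and Psmg4. Of the interferon-inducible genes Psmb8, Psmb9, Psmb10, Psme1 and Psme2, only Psme1 had a match in its peak. In the fixed window the element was in 6 of 50 Psm genes (12%), close to the 10.5% of all genes, and Psme1 was not among them.

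The CREB/ATF site TGACGTCA was in the peaks of 2 of 47 genes (4.26%), Psmb2 and Psmb8, beside 3.96%. A match in footprints of both libraries was held by the same 2 of 47 genes (4.26%), beside 3.08% of all, so the frequency was near the background. The site shares its first 4 letters with the antioxidant core, and no match counts for both at 1 start on 1 strand. The ZBTB33-type palindrome CTCGCGAG was in 2 (4.26%), Psmb2 and Psmd5, beside 2.04%. A match in footprints of both libraries was in the same 2 of 47 genes, beside 0.879% of all. The SP/KLF box GGGCGG was in 28 Psm peaks (59.6%), beside 65.3%, the NF-Y box CCAAT in 14 (29.8%), beside 36%, and the E-box CACGTG in 5 (10.6%), beside 10.3%. GCGCATGC, the nuclear respiratory factor 1 site, was in 3 (beside 5.94%), ATGGCGGC, for YY1, in 5 (beside 5.69%) and the TATA box TATAAA in 1 (beside 3.23%), Psmb4. A match is a run of letters and not a measured binding event.

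**Figure D4:**
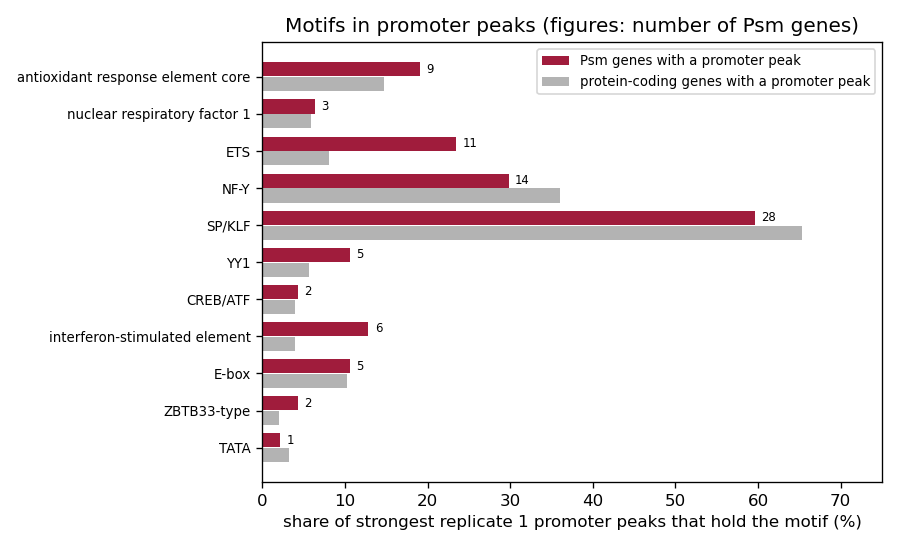
Share of strongest replicate 1 promoter peaks (x axis, percent) that hold each motif (y axis) on either strand, for the 47 Psm genes with a promoter peak (red, with the number of genes) and for all 13989 protein-coding genes with a replicate 1 promoter peak (grey). ETS is in 11 Psm genes (23.4% against 8.03%), and the SP/KLF box is the most frequent motif in both sets.

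Away from promoters the median Psm gene had few accessible sites, and so did the median of all genes. A linked peak lies in the gene body or within 10 kb of it and outside every TSS window. The median was 1 per gene in both libraries, for the Psm genes and for all genes, and 25 of 50 Psm genes (50%) had one in both libraries, beside 54.3% of all genes. There were 89 in replicate 1 and 56 in replicate 2, of which 18 and 12 lay in the gene's own body and 30 and 20 in the record of another gene. Psm gene records are short, with a median of 11.6 kb beside 17.4 kb.

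Psmg4 had the most linked peaks, 19 in replicate 1 and 3 in replicate 2. The 3 peaks of replicate 2 were all found in replicate 1, and the 16 others of replicate 1 were weak, between 0.114 and 0.563. Psmb7 had 9 and 4, Psmd9 had 6 and 4, Psmc1 had 5 and 4 and Psmb3 had 4 and 4. The Psmd9 record spans 80.7 kb, with its strongest replicate 1 promoter peak centred 58818 bp inside it. Some linked peaks of Psmd9 lay in the records of Wdr66 or Hpd. Without Psmg4, 42 of 70 linked peaks in replicate 1 and 43 of 53 in replicate 2 had a match in the other library. The counts of Psmg4 and Psmb7 in replicate 1 thus rest largely on peaks seen in 1 library.

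A few linked peaks reached the strength of promoters. The strongest in replicate 1, at chr11:97702421-97702660, centred 858 bp upstream of Psmb3, had 4.26 in replicate 1 and 2.80 in replicate 2. A peak centred 5470 bp upstream of Psma3 (chr12:70969041-70969260) had 3.55 and 3.49, the strongest in replicate 2. The promoter of Psma3 itself had 3.23 (2.95 to 3.53) and 2.02 (1.77 to 2.30), so the upstream peak was the higher in both libraries, by little in replicate 1. A peak centred 4776 bp upstream of Psmd1 (chr1:86059521-86059700) had 3.66 and 2.34. A peak centred 1438 bp inside Psmc2 (chr5:21786621-21786820) had 3.53 and 2.54, beside 3.40 and 2.00 at its promoter. All of these were called in both libraries. A peak 11523 bp past the start of Psmd7, beyond its end (chr8:107576841-107577040), had 2.98 and 2.67. Psmc1, with its weak promoter, had a peak 3653 bp upstream at 2.34 and 1.78, beside 1.98 and 1.33 at the promoter. Which gene such a site serves was not tested.

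Between the libraries, promoter strength of the Psm genes scaled much like that of other genes. The median log2 ratio of replicate 1 to replicate 2 was 0.61 (SD 0.30 over 47 genes), beside 0.63 (SD 0.34) over the 12910 genes with a peak in both. The ratio was highest for Psma2 (1.15), Psmd8 (1.10) and Psmd12 (1.10). It was lowest for Psmg3 (-0.37), Psmb5 (0.01) and Psmb3 (0.04). With 1 group of 2 libraries, a gene with an unusual ratio cannot be told apart from replicate noise.

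**Figure D5:**
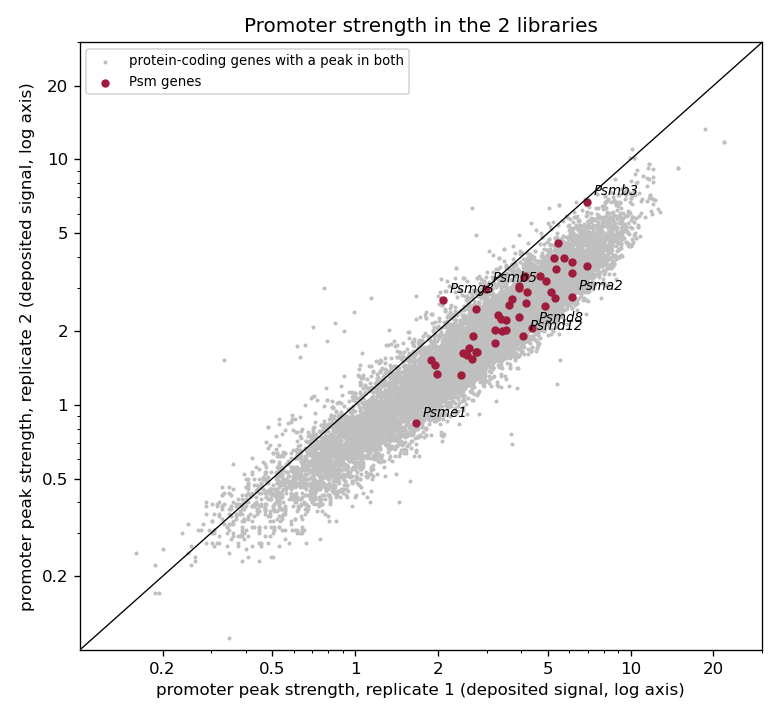
Promoter peak strength in replicate 1 (x axis) against replicate 2 (y axis), both deposited signals on log axes, for the Psm genes (red) and for protein-coding genes with a promoter peak in both libraries (grey), with the line of equal strength. Psm genes follow the grey cloud, Psmg3 (2.08 and 2.68) lies above the line and Psmb5 and Psmb3 lie on it.

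The surrounding pathway was open as well. Of 27 listed ubiquitin and proteasome pathway genes 26 were matched by name, and all 26 had a promoter peak in both libraries, beside 58.8% of all genes, with median strengths of 3.18 and 2.20 beside 2.94 and 1.88 over all genes with a promoter peak in both. They include the maturation factor Pomp (3.22 and 1.75), the ubiquitin receptor Adrm1 (5.76 and 3.53) and the small cap subunit Sem1 (2.29 and 1.98), which belong to the proteasome but do not carry the Psm symbol. Nfe2l1, the regulator of proteasome genes, had 6.13 and 4.14, above Nfe2l2 at 2.03 and 1.22. Ddi2 and Ngly1, which process Nfe2l1, had 2.76 and 1.10, and 1.63 and 1.08.

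The class I antigen processing list was open in 14 of 14 genes in both libraries, beside 58.8% of all genes, with medians of 2.92 and 1.76 beside 2.94 and 1.88 over all genes with a promoter peak in both. Nlrc5, the activator of class I genes, was the weakest at 0.650 and 0.515. H2-K1, a class I heavy chain, had 1.17 and 0.943, and B2m, its light chain, had 3.38 and 3.23. The immune isoforms Psmb8, Psmb9 and Psmb10 thus had promoter peaks beside those of class I genes. For lymphoid and for microglial markers the share with such a peak in both libraries was 0 of 6 each. The microglial markers Tmem119 and Cx3cr1 had one in replicate 1 alone. Microglial markers did have linked peaks away from promoters. Cx3cr1 had 11 in replicate 1 and 5 in replicate 2, P2ry12 had 4 and 2, and Csf1r had 2 and 2. Aif1 had 2 and 1, C1qa had 1 and 1, and Tmem119 had 1 and 0. The part of any one cell type in the promoter peaks of the immune isoforms was not tested.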

How the data were processed

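The 2 libraries form 1 group, so values were described and no test between groups was made. Per the deposited notes, the authors called the peaks, the footprints and the FDR cut rates library by library on mm10 alignments, without pooling. For the aligner, peak caller and thresholds the sources used here give nothing. Peak strength is the authors' deposited signal, of unstated scale. The deposited FDR (p-value scale) stretches all lie below 0.05. Deposited footprint files hold 1 constant value, so only positions were used.

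Genes, transcripts and starts came from GENCODE M21. Promoter peaks overlapped by at least 1 bp the 500 bp on either side of any TSS of the gene. Linked peaks were centred in the body or its 10 kb flanks and overlapped no TSS window of any annotated gene, protein-coding or not. Sequences were read from GRCm38.p6, where 0 intervals ran beyond a chromosome. The tools were numpy 2.4.6, scipy 1.17.1, pysam 0.24.0 and bedtools 2.31.1. Overlaps were tested on simulated data, where 400 of 400 windows equalled bedtools. Steps of the strength were read as cuts for 95% Poisson intervals. The members, gene lists, marker lists and motifs were chosen with earlier results of these data known. Every Psm gene may be named, with full values for the 6 strongest and 6 weakest promoters, those without a peak, the isoforms and counterparts, the most linked peaks and footprints and the extreme ratios. The linked peaks given by position and some list genes were named after their values were seen. Of the pathway list, Paaf1 was not matched.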

Additional observations from a re-analysis of the deposited data

How the results depend on the processing

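The count of 47 open Psm promoters and the 3 open immune isoforms stayed within 1.5 times in the alternatives run on both. These were the stricter list, windows of 250 and 1000 bp, the 5′ end alone and each replicate left out. The median strength of 2.98 (mean of both libraries) stayed within the spread between libraries with the same list, windows and 5′ end. It was 2.38 without replicate 1 and 3.58 without replicate 2. That step could not exceed the spread, which is taken from the same 2 values. The 47 promoters with footprints were run with both windows, footprints inside peaks and each replicate left out, and kept their count. The median ratio was run only with the stricter list and with overlapping strongest peaks, and moved by less than the SD over the genes. The median number of linked peaks, 1, became 0.5 with the stricter list, 0 with no flank, 3.75 with a 50 kb flank and 2 when only the gene's own windows were left out. Over all genes it was 0, 0, 3.5 and 1.5 there. Leaving out either replicate gave 1. The motif counts used peaks of replicate 2 and 300 centred bases as alternatives chosen after seeing the data, and counts for YY1, ZBTB33 and TATA, at most 5 genes, moved by over 1.5 times in at least 1 window. No paired analysis was possible because there is 1 group. Depth limits calls of closed promoters, as no counts are given outside peaks.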
